A study of Drosophila melanogaster with 4 samples.

Results

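CTCF-bound chromatin was described here along the X chromosome of Drosophila melanogaster embryos, as 847 of the 3888 enriched regions in a list that the authors made from both of their CTCF ChIP libraries. The X regions are all rows of that pooled list that lie on X and are marked as enriched, so membership rests on position and not on a score. The choice of X and of the tests was made with earlier results of these data known. The embryos were of the wild-type Oregon-R strain (Oregon-R-modENCODE) and were aged 14 to 16 h. Chromatin was immunoprecipitated with an antibody against CTCF in 2 libraries, replicates 1 and 2, and the study has 2 input libraries from the same strain and stage, which were not analysed here. The labels name no treatment, and the embryos were used whole, so the lists mix the tissues of the embryo, and the labels do not give its sex. Each ChIP library has a region list of its own, and X carried 543 of the 2408 regions of replicate 1 and 460 of the 2080 regions of replicate 2. Read totals are unknown, so no value below has an error from depth, and nothing in the labels says that the replicates came from separate collections. Positions are in FlyBase release 5. Without a genome or gene models of that release, regions are named by position alone, with no genes or sequence, and the presence of a CTCF motif was not checked.

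CTCF is a DNA-binding protein with a row of zinc fingers. In Drosophila it acts with partner proteins such as CP190 at chromatin insulators, elements that can keep an enhancer from a promoter when they lie between them, and it is best known for the boundaries of the bithorax complex. In males, which carry a single X, the MSL complex raises transcription from that chromosome by binding along it, a process called dosage compensation. Neither the MSL complex nor transcription was measured in this series.

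CTCF regions ran along the whole of X, from close to its first base to the last part of the assembled arm. The first region lay at X 5462 to 7604 with a score of 0.522, and the last at X 22299328 to 22301330 with a score of 0.493. Both were listed in each replicate. The sequence after the last region was empty for 121497 bp. Together the 847 regions covered 1704137 bp, or 7.60% of the 22.4 Mb arm, at 37.8 regions per Mb. Scores are those the authors deposited with each region, by a formula that the sources used here do not give.

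CTCF regions were spread over all large parts of X, and none of its 4 equal sections passed a test of density against the rest of the arm. Counts in smaller segments, given further on, varied more and were not tested. Cut into 4 sections of equal length, the arm held 230, 213, 192 and 212 regions from its start to its end, or 41.0, 38.0, 34.3 and 37.8 per Mb. The first section had 1.12 times the density of the rest of the arm (exact 95% interval 0.957 to 1.30) and the third had 0.879 times (0.745 to 1.03). Neither passed a two-sided exact binomial test, each with an adjusted p of 0.306 over 4 sections, and the other sections had ratios of 1.01 and 1.00. These tests, like the others below, count regions as independent and measure no spread between libraries.

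In 20 segments of equal length the count per segment ran from 24 to 67 with a median of 41.5. The densest segment was the second, X 1121142 to 2242282, with 67 regions, of which 33 were listed in both replicates. It was also the densest in each replicate alone, with 43 regions in replicate 1 and 35 in replicate 2. Segment 17 (X 17938262 to 19059402) followed with 54 regions, and segments 6 (X 5605707 to 6726848) and 18 (X 19059403 to 20180544) with 51 each. Segment 2 lies near the start of the arm, and segments 17 and 18 adjoin each other in its last part.

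The emptiest segment was the last, X 21301686 to 22422827, with 24 regions. Segment 13 (X 13453697 to 14574837) held 30 and segment 4 (X 3363425 to 4484565) held 35. Segment 13 had 15 regions in replicate 1 and 12 in replicate 2, with only 8 pooled regions listed in both. The SD over segments was 9.14 regions around a mean of 42.4, a variance 1.97 times the mean, given as a description with no test.

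**Figure D1:**
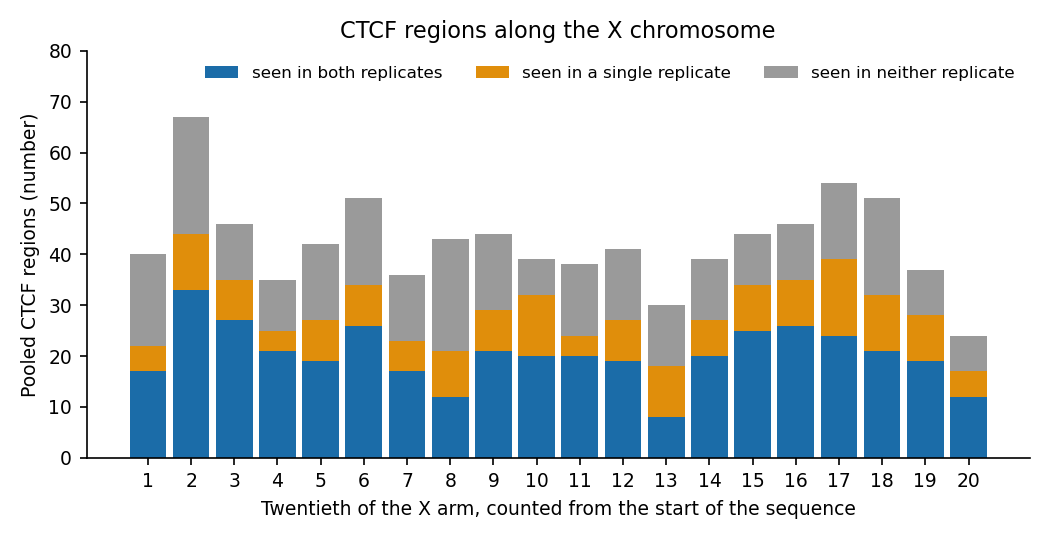
Number of pooled CTCF regions in each of 20 equal segments of X, counted from the start of the sequence, with the bars divided by whether a region overlapped a region of both replicate lists, a single one or neither. Segment 2 stands highest with 67 regions and segment 20 lowest with 24, and regions seen in both replicates occur in every segment, from 8 to 33.

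Strong regions were present in every segment as well. X had 122 regions with a score over 2, and each of the 20 segments held between 2 and 11 of them. Segments 14 and 16 had 11 each, and segments 8 and 20 had 2 each. Along the arm, the score of a region said little about the next one. Spearman's rho between the scores of neighbouring regions was 0.0271 over 846 neighbouring pairs, given as a description since neighbours share libraries and local coverage.

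Many CTCF regions on X had a close neighbour. Centres of neighbouring regions were a median of 15614 bp apart, and the middle 50% of these spacings lay between 7397 and 34488 bp. In 290 of 846 cases (34.3%) the next centre was within 10 kb, and in 25 it was over 100 kb away. Edges of 44 neighbouring pairs were under 1000 bp apart.

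The closest pairs joined weak regions. At X 4578248 to 4579386 (score 0.359, seen in neither replicate) and X 4579428 to 4581454 (score 0.421, seen in both) the centres were 1624 bp apart and the edges 41 bp apart. The next pair, X 8040380 to 8041524 and X 8042000 to 8043168, had centres 1632 bp apart, and neither of its members was seen in a replicate. In the third, X 13533892 to 13535136 and X 13535158 to 13537138, the centres were 1634 bp apart and the second member was listed in replicate 1 alone. In all 3 pairs the scores were below 0.5.

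When regions whose centres followed each other within 10 kb were joined, X fell into 557 groups. Of these, 367 were lone regions, 123 were pairs and 48 were groups of 3. Groups of 5 or more numbered 10 and held 54 regions. The largest had 7 regions between X 9472912 and 9510304, with scores from 0.216 to 1.24, and 3 of them were seen in both replicates. A group of 6 at X 2527558 to 2554974 reached a score of 2.49, and another group of 6 at X 14473922 to 14505156 reached 1.97, with 3 and 1 of their members seen in both replicates.

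The longest stretches without a region lay past the middle of the arm and near its end. The longest was X 14251379 to 14453989, or 202611 bp. It was followed by X 21246045 to 21433093 (187049 bp) and X 21609799 to 21791097 (181299 bp). Neither replicate list had a region lying wholly inside any of these 3 stretches. How much of each stretch can be mapped was not measured.

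Regions listed in both replicates were fewer than those of the pooled list as a whole and were spaced more widely. Their median spacing was 36859 bp over 406 spacings. The lists of single replicates gave 28425.5 bp for replicate 1 and 32926.5 bp for replicate 2. Regions with a score over 2 had a median spacing of 120959 bp and came as close as 3376 bp. That closest pair included X 3623102 to 3624110, a region of 1009 bp seen in neither replicate. Among those seen in both replicates, the closest were X 21227502 to 21230418 and X 21232720 to 21235370, with centres 5085 bp apart.

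Width and score of the X regions did not follow a single trend. Widths ran from 1001 to 8233 bp with a median of 1983 bp, and scores from 0.128 to 5.74 with a median of 0.462. Spearman's rho between them was 0.652 over 847 regions, as a description. Among the narrow regions, however, the score was lower in wider ones. The median score was 0.425 for the 163 regions of 1001 to 1300 bp, 0.340 for the 107 of 1301 to 1600 bp and 0.324 for the 98 of 1601 to 1900 bp. It was 0.440 at 1901 to 2200 bp (187 regions), 1.51 at 2201 to 2600 bp (165 regions) and 2.27 above that (127 regions). The narrowest class therefore had a higher median score than the next 2 classes, and strong scores were otherwise found in wide regions.

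Replicate match changed sharply with width. None of the 163 regions up to 1300 bp and none of the 107 regions of 1301 to 1600 bp was listed in both replicates, against 6 of 98 (6.12%) at 1601 to 1900 bp. The part seen in both was 127 of 187 (67.9%) at 1901 to 2200 bp and 157 of 165 (95.2%) at 2201 to 2600 bp. The autosome arms changed in a like way over the same widths. Their counts were 0 of 595, 2 of 355 (0.563%), 42 of 427 (9.84%), 385 of 519 (74.2%) and 516 of 541 (95.4%). The narrowest X region seen in both was 1761 bp wide, and the shortest width in the replicate lists was 1301 bp. The 163 X regions up to 1300 bp were thus shorter than any replicate region. All 3888 pooled starts were even numbers, against 1233 of 2408 in replicate 1 and 1014 of 2080 in replicate 2. Whether the way each list was made bears on the match was not tested.

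**Figure D2:**
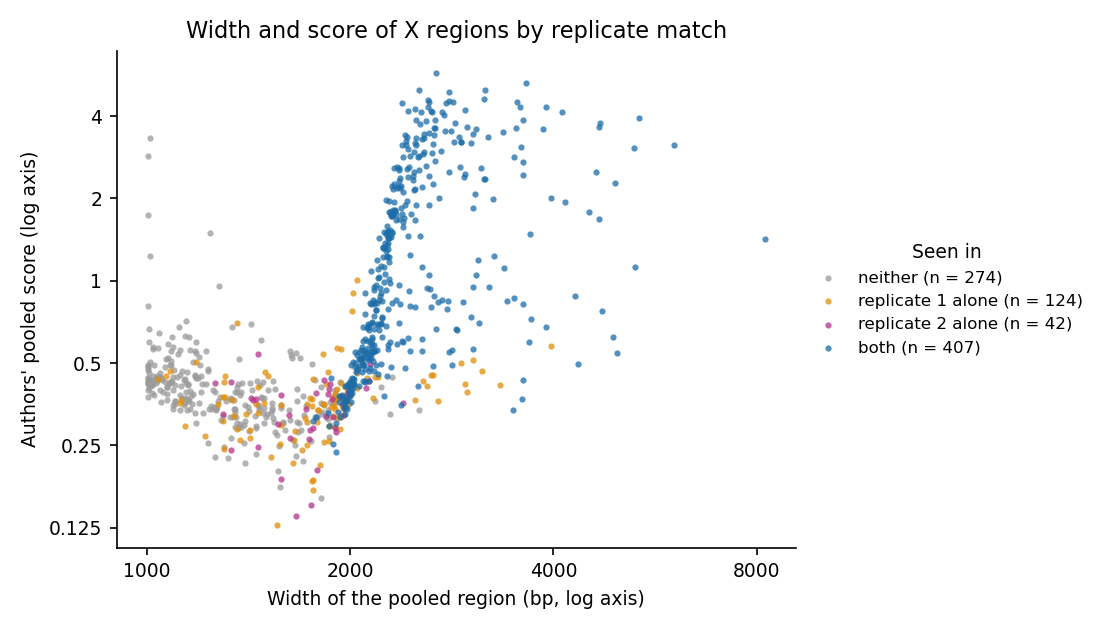
Width in bp (log axis) and the authors' pooled score (log axis) of each of the 847 X regions, coloured by the replicate lists that held an overlapping region. Regions seen in both replicates start at 1761 bp and make up 201 of the 207 X regions with a score over 1, while a few regions near 1001 bp that neither replicate listed reach scores up to 3.32.

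The 10 strongest X regions were spread from the first to the last part of the arm, and each was near the top of both replicate lists. The strongest, X 20630270 to 20632952, is 2683 bp wide and scored 5.74 in the pooled list, 6.00 in replicate 1 and 5.40 in replicate 2. Next came X 17424484 to 17428126, with a pooled score of 5.27 and scores of 5.38 and 5.31 in replicates 1 and 2. The third, X 1845456 to 1848624, scored 4.98, with 5.14 and 5.00 in the replicates. Replicate scores of these leading regions thus differed by 0.600 or less.

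The region at X 9671456 to 9673986 had a pooled score of 4.97 and replicate scores of 5.05 and 4.88. At X 13456090 to 13458892 the scores were 4.89 in the pooled list, 5.04 in replicate 1 and 4.80 in replicate 2. X 18735646 to 18738800 scored 4.64, and it showed the widest replicate gap of the 10 in rank, with a score of 4.96 at rank 22 of replicate 1 and 4.38 at rank 52 of replicate 2. The other members were X 5800736 to 5803340 (4.59), X 7055224 to 7058020 (4.56), X 17643970 to 17647500 (4.52) and X 9902702 to 9905540 (4.50). None of the 10 ranked below 60 in replicate 1 or below 52 in replicate 2.

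The strongest regions differed in how isolated they were. The region at X 20630270 had its nearest neighbour 31418 bp away, centre to centre, and that at X 7055224 had it 33818 bp away. By contrast, the region at X 1845456 had a neighbour at 4475 bp and that at X 18735646 had one at 4531 bp. Over all X regions, Spearman's rho between score and distance to the nearest neighbour was 0.0552 (n = 847, a description).

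About as many X regions were listed in both replicates as on the other sequences. Of the 847, 407 (48.1%, 95% Wilson interval 44.7 to 51.4) overlapped a region of both replicate lists by at least 1 bp, against 46.7% of all pooled regions. Replicate 1 alone matched 124 X regions (14.6%, against 13.9% of all), and replicate 2 alone matched 42 (4.96%, against 5.79%). The other 274 X regions (32.3%, against 33.7%) matched neither. The shares are near those of the whole list. The pooled list was built from the libraries it is matched to here, so a match is not independent evidence for a region.

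Matched regions were the strong ones, though scores overlapped. The 407 regions seen in both had a median score of 0.969, with the lowest at 0.236 and the highest at 5.74. Regions of replicate 1 alone had a median of 0.366 and reached 1.01, and those of replicate 2 alone had a median of 0.355 and reached 0.540. Regions of neither replicate had a median of 0.391 and reached 3.32. In the lowest decile of X scores, up to 0.306, 4 of 85 regions (4.71%) were seen in both. The share was 52.9% in the sixth decile (from 0.462 to 0.553), with 45 of 85, and 97.6% in the highest, with 83 of 85.

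Matched regions lay at almost the same place in both libraries. For 398 X regions with a single partner in each list, the centres in replicates 1 and 2 were a median of 43.8 bp apart, and at most 856 bp. In 355 of them (89.2%) they were within 200 bp. Among the 118 with a pooled score over 2 the median was 31.3 bp, and among the 201 with a score below 1 it was 68.0 bp. Pooled regions were slightly wider than their partners, which had median widths of 2196 bp in replicate 1 and 2252 bp in replicate 2 against 2312 bp in the pooled list.

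A few broad X regions were divided in a replicate. There were 8 pooled regions that held 2 regions of a replicate list, each lying at least 50% inside, and they were 3591 to 8233 bp wide, with a median of 4786 bp. In 2 further regions, of 2045 and 2161 bp, a second partner reached in from the side. At the narrower of these, X 3637464 to 3639508, that partner scored 1.88 in replicate 1 although the pooled region scored 0.406. The widest X region, X 17775900 to 17784132, scored 1.42. It was a single region of 8144 bp in replicate 1 and 2 regions in replicate 2, the stronger of which was 4269 bp wide. The region at X 9577620 to 9583656 (6037 bp, score 3.14) likewise had 1 partner in replicate 1 and 2 in replicate 2. The third widest, X 18131490 to 18136842 (5353 bp, score 3.95), was whole in both, with widths of 5208 and 5289 bp.

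X regions seen in both libraries largely kept their order of score between them. Over the 407 regions seen in both, Spearman's rho between the replicate scores was 0.927 and Pearson's r was 0.981, and over the 1362 such regions of the autosome arms they were 0.945 and 0.987. These are descriptions across regions of the same pair of libraries. The score was higher in replicate 1 for 204 regions and in replicate 2 for 203.

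Within its own list, a shared X region changed place by a median of 4.94 percentile points between the replicates. On the autosome arms the median was 4.69 points, and 21 of 1362 shared regions changed by over 40 points. On X the change was over 20 points in 49 of 407 regions and over 40 points in 7, and all 7 stood higher in the replicate 1 list. Of these, 3 are named here, after their values were seen. The largest change was at X 19744946 to 19747174, where the score percentile was 54.5 in replicate 1 and 1.25 in replicate 2. At X 1080148 to 1082224 it was 48.6 and 2.62, and at X 9715560 to 9717556 it was 46.7 and 2.24. All 7 had pooled scores below 0.7. The replicate lists differ in length, and a like score can stand at unlike percentiles in them. At X 16533756 to 16535972, scores of 0.590 in replicate 1 and 0.589 in replicate 2 stood at percentiles 43.1 and 36.0. A change of percentile is therefore not by itself a change of score.

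**Figure D3:**
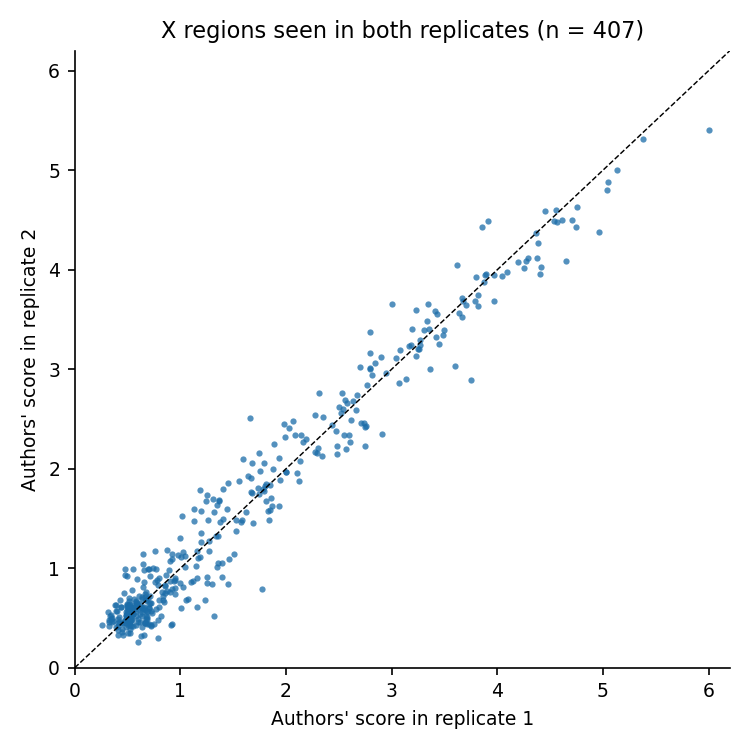
Authors' score in replicate 1 (horizontal) and replicate 2 (vertical) for the 407 X regions seen in both, with a dashed line of equal scores. Points follow the line up to the strongest region, at 6.00 and 5.40, with 204 regions below it and 203 above.

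By pooled score, the leading regions of a single replicate stood below the leading regions seen in both. The highest-scoring of replicate 1 alone, X 21791098 to 21793140, had a pooled score of 1.01 and a replicate 1 score of 1.40, at rank 769 of 2408. The next, X 21796410 to 21798430, scored 0.905 and 0.887 and lies 5301 bp from it, centre to centre. These neighbours stand directly after the stretch of 181299 bp without a region near the end of the arm. The third, X 17792204 to 17794214, scored 0.776 and 1.07.

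Replicate 2 alone gave lower scores still. Its highest were X 19921684 to 19923140, with 0.540 in the pooled list and 0.760 in replicate 2, X 6426546 to 6428684, with 0.497 and 0.598, and X 17683158 to 17684982, with 0.434 and 0.659. The best of them held rank 1091 of 2080 in its list.

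A small set of X regions had a high pooled score without any match. Of the 274 X regions seen in neither replicate, 149 (54.4%) were shorter than 1301 bp, and 5 scored over 1. On the autosome arms 535 of 940 such regions (56.9%) were that short, and 22 scored over 1. The highest on X were X 3623102 to 3624110 (1009 bp, score 3.32), X 19802786 to 19803786 (1001 bp, 2.86) and X 22086230 to 22087230 (1001 bp, 1.74). The remaining ones, named after their values were seen, were X 22012692 to 22013930 (1239 bp, 1.49) and X 10500526 to 10501536 (1011 bp, 1.24). All 5 were narrower than 1301 bp.

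Scores were repeated elsewhere on the 5 large arms for the first 3 of these narrow regions and not for the last 2. The score of the first was repeated to every deposited digit in 2 regions of the autosome arms, that of the second in 2 and that of the third in 1. On X as a whole 135 of 847 regions shared their exact score with another pooled region, beside 560 of 3888 over all sequences. Only 22 of the 407 X regions seen in both replicates did.

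The replicate lists added few X regions of their own. Of the 543 X regions of replicate 1, 7 had no pooled partner (1.50% of all replicate 1 regions had none), and of the 460 of replicate 2, 4 had none (1.06% of all replicate 2 regions). Of replicate 1 these included X 1184331 to 1185727 (score 0.726), X 3782630 to 3784025 (0.689) and X 12641080 to 12642433 (0.591). For replicate 2 they included X 15334606 to 15335999 (0.701), X 10232422 to 10233746 (0.563) and X 18600537 to 18601884 (0.535). None of the 11 overlapped a region of the other replicate.

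Matched directly, the replicates shared X regions as often as regions of the autosome arms 2L, 2R, 3L and 3R. On X, 412 of 543 replicate 1 regions (75.9%, Wilson 72.1 to 79.3) overlapped replicate 2, against 76.2% on the autosome arms (two-sided Fisher's exact test, adjusted p = 0.909 over 2 tests). In the other direction it was 415 of 460 (90.2%, 87.2 to 92.6) against 88.0% (adjusted exact p = 0.425). Among the X regions of replicate 1 that were not shared, 131 in all, the median score percentile was 35.8, and 11 of them scored above the median of the X regions in that list. For the 45 such regions of replicate 2 it was 29.5, with a highest of 47.6.

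A close neighbour was more frequent on X than on the autosome arms combined, with 2R nearest to X. A neighbour within 10 kb, centre to centre, was found for 480 of 847 X regions (56.7%, Wilson 53.3 to 60.0) and 1421 of 2877 autosome regions (49.4%, 47.6 to 51.2), where 51.0% of regions on all 5 large arms had one. The difference of 7.28 points passed Fisher's exact test (adjusted p = 6.07e-04 over 3 tests). A close spacing marks the regions on both of its sides, so these counts are not independent, and the test does not allow for that. By arm, the share was 54.6% on 2R, 48.1% on 3L, 47.8% on 3R and 47.1% on 2L, and single arms were not tested against X. Median spacing was 15614 bp on X, 17402 bp on 2R, 20406 bp on 3R, 22512 bp on 2L and 23197 bp on 3L. The 10th percentile of spacing was smaller on 2R than on X, at 3592 and 4166 bp. Median spacing followed the order of region density, which was 37.8 per Mb on X, 33.6 on 2R, 30.9 on 3R and 27.4 on both 2L and 3L. The 10th percentile did not, and in the share with a close neighbour 3L stood above 3R. Closer neighbours on X and more regions per Mb cannot be told apart.

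**Figure D4:**
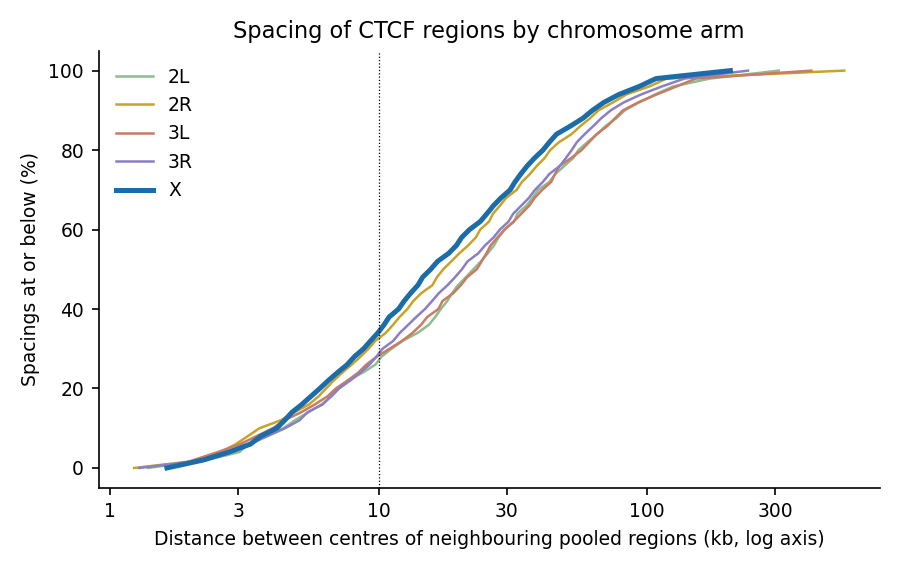
Cumulative share (%) of the distances between centres of neighbouring pooled regions (kb, log axis) for each chromosome arm, with X as the thick line and 10 kb as the dotted line. X has 34.3% of its spacings at or below 10 kb, and its longest, 204329 bp, is below the longest of each autosome arm.

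X regions were slightly wider than those of all 4 autosome arms combined in the pooled list. No such difference was detected in either replicate at the median width of its own list. On X, 451 of 847 regions (53.2%, Wilson 49.9 to 56.6) were wider than the 1951 bp median of the 5 large arms, a width that 49.9% of their regions exceeded. On the autosome arms it was 1408 of 2877 (48.9%, 47.1 to 50.8), a difference of 4.31 points (Fisher's exact test, adjusted p = 0.0429 over 3 tests). By arm, the share was 52.8% on 2L and 53.0% on 3L, close to X, and 45.1% on 2R and 46.1% on 3R. In replicate 1 alone the difference, taken at that list's own median, was -0.304 points (adjusted exact p = 0.922), and in replicate 2 alone -3.03 points (adjusted p = 0.398), each as X minus autosome arms. At the 1951 bp width used for the pooled list, the shares in replicate 1 were 69.4% on X and 66.9% on the autosome arms. In replicate 2 they were 70.7% and 70.6%, with no test at that width.

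The part of regions seen in both replicates did not differ detectably between X and the autosome arms overall. It was 48.1% on X and 47.3% on the autosome arms (Wilson 45.5 to 49.2), a difference of 0.711 points (Fisher's exact test, adjusted p = 0.725 over 3 tests). Among pooled regions with a score above the median of the whole list, however, the difference was -17.5 points (adjusted exact p = 5.27e-17), with 69.8% of X regions seen in both. Like regions by score were therefore compared next.

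At intermediate scores, X regions were listed in both replicates less often than autosome regions of like score. Since the formula of the score is not given, whether a score means the same on X and on the autosomes is unknown. The whole pooled list was divided into quintiles by score, in which 8.10%, 14.4%, 36.5%, 81.7% and 92.5% of all regions, from the lowest to the highest quintile, were seen in both. In the middle quintile (scores of 0.367 to 0.502) the share was 60 of 245 on X (24.5%, Wilson 19.5 to 30.2) and 216 of 520 on the autosome arms (41.5%, 37.4 to 45.8), with an adjusted Fisher's exact p of 9.88e-06 over 5 quintiles. In the quintile above (0.502 to 1.50) it was 167 of 219 on X (76.3%, 70.2 to 81.4) and 443 of 475 on the autosome arms (93.3%, 90.6 to 95.2), with an adjusted exact p of 5.40e-09. In both of these quintiles X was below each of the 4 autosome arms, which ran from 38.4% to 45.3% in the first and from 92.4% to 94.4% in the second.

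At the ends of the score range no such difference passed when regions of all widths were compared. In the lowest quintile the share was 4.29% on X and 8.45% on the autosome arms, and in the next 11.9% and 15.2% (adjusted exact p = 0.460 for each). In the highest quintile it was 98.1% on X and 97.5% on the autosome arms (adjusted exact p = 0.776).

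**Figure D5:**
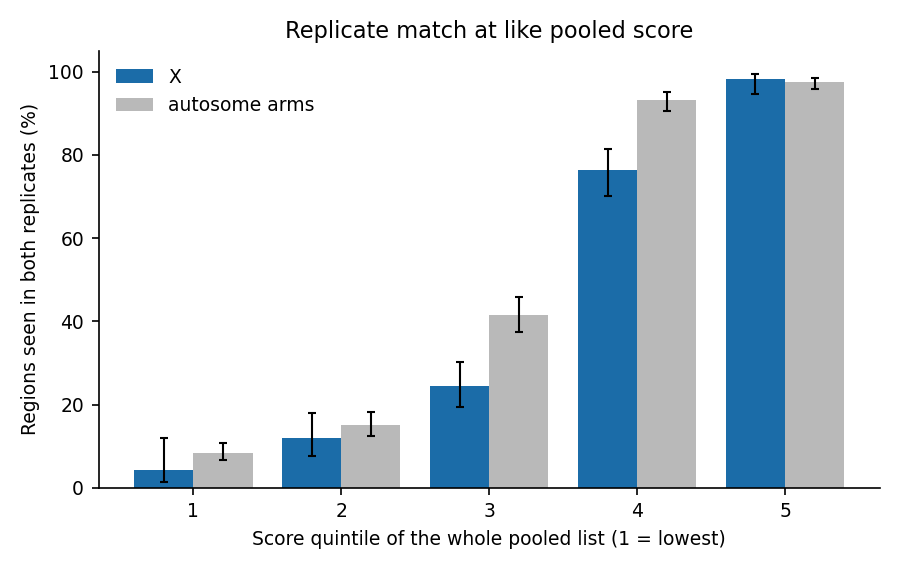
Share (%) of pooled regions that overlapped both replicate lists in each score quintile of the whole pooled list, for X and for the 4 autosome arms together; error bars are 95% Wilson intervals, which cover counting only. X lies below the autosome arms in quintile 3 (24.5% against 41.5%) and quintile 4 (76.3% against 93.3%).

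Taken by library, the difference at intermediate scores passed in both quintiles for replicate 2 and only in the upper of them for replicate 1. In the middle quintile, the share overlapping replicate 1 was 44.9% on X and 52.1% on the autosome arms, a difference of -7.22 points that did not pass (adjusted exact p = 0.159). For replicate 2 it was 31.4% and 46.5%, or -15.1 points (adjusted exact p = 2.06e-04). In the quintile above, both libraries passed, with differences of -12.6 points for replicate 1 (adjusted exact p = 5.33e-06) and -16.6 points for replicate 2 (adjusted p = 1.14e-08). Whether the difference was larger in replicate 2 was not tested.

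Width moved with this result in part. X regions of the middle quintile had a median width of 1665 bp against 1947 bp on the autosome arms, though 36.7% of them were shorter than 1301 bp against 40.6% of autosome regions. By arm the median was 2001 bp on 2L, 1991 bp on 2R and 2035 bp on 3L, but 1402 bp on 3R, which is narrower than on X. In the quintile above the medians were 2187 and 2251 bp, and 14.6% of X regions were that short against 6.11% on the autosome arms. Among regions of at least 1301 bp, the differences were -31.2 points (adjusted exact p = 8.46e-10) and -10.0 points (adjusted p = 2.18e-08). With that minimum the quintile below them passed too, at -9.87 points (adjusted exact p = 0.0402), where with all widths the difference was -3.24 points.

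Score level moved with it too. X scores began higher in every list, with 5th percentiles of 0.266 on X and 0.206 on the autosome arms in the pooled list, 0.383 and 0.310 in replicate 1, and 0.421 and 0.353 in replicate 2. When the quintiles were set within X and within the autosome arms instead, so that regions of like rank on their own chromosomes were compared, no quintile passed. The middle quintile then had 36.5% on X (scores of 0.420 to 0.553) and 30.6% on the autosome arms (0.350 to 0.452), with an adjusted exact p of 0.401. The one above had 81.1% and 87.5%, with an adjusted exact p of 0.215. The lower X share was thus seen at like scores and was not detectable at like ranks.

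Replicate match was alike in the 4 sections of X and ranged more widely over its 20 segments, which were not tested. The share seen in both was 50.9%, 45.1%, 47.9% and 48.1% in the 4 sections of the arm, and none differed detectably from the rest of X (Fisher's exact test, adjusted p from 0.707 to 1 over 4 tests). Among the 20 segments it ran from 26.7% in segment 13 and 27.9% in segment 8 to 60.0% in segment 4. The low segments held 30 and 43 regions, so these shares rest on 8 and 12 matched regions. Regions seen in neither replicate lay within 10 kb of a matched one about as often as matched regions did, in 93 of 274 (33.9%) and 126 of 407 (31.0%). Their median distance to the nearest other matched region was shorter, at 15548 bp against 19489 bp for matched regions, with no test.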

How the data were processed

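Region lists from ChIP-seq for CTCF were used, 1 for each of 2 ChIP libraries and 1 for both together. Each deposited list gives a score per region, computed by the authors by a formula not stated in the sources used here. The submitters' processing notes name Bowtie 0.12.7 for alignment, and positions are in FlyBase release 5, per the file headers. Which peak caller and threshold were applied, and how the input entered, is not given in the sources used here. Embryos were fixed with 1.8% formaldehyde, per the labels' protocols. In the pooled list 1 region marked as depleted was left out.

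Regions were shared when they overlapped by at least 1 bp. Of several partners the highest-scoring was taken. Shares were compared by two-sided Fisher's exact tests and densities by exact binomial tests, with Benjamini-Hochberg adjustment judged at 0.05. Wilson and exact intervals are at 95% and cover counting only. Read depth is unknown. The X regions and tests were chosen with earlier results of these data known. Regions named are the 10 highest-scoring on X, the 3 highest in each class of replicate match and of those without a pooled partner, the 3 widest, the 3 closest pairs, the 3 longest empty stretches, and the 3 segments with most and fewest regions, with ties. The gene table at hand is of release 6 and was not used. Code was tested on simulated data, and run with SciPy 1.17.1, pandas 2.3.3, NumPy 2.4.6 and Matplotlib 3.10.9 under Python 3.11.15.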

Additional observations from a re-analysis of the deposited data

How the results depend on the processing

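Of 83 values under alternative settings, 56 kept their direction and their side of 0.05 or moved by less than their error. The share of X regions seen in both replicates was 40.6% with centres within 200 bp, 69.8% above the median score, 59.5% at 1301 bp or more, and 53.0% to 62.7% when matched to a single replicate. Its difference from the autosome arms, as X minus autosome, was -0.192 points with centres within 200 bp, -17.5 above the median score, -0.182 at 1301 bp or more, and -0.344 to 1.38 with a single replicate. The difference in regions wider than the median was -3.03 to -0.304 points with a single replicate, taken at that list's own median. The quintile settings were added after seeing the data. With a single replicate the differences were -0.778 to 1.61 points in quintile 1 and -15.1 to -7.22 in quintile 3. With regions of at least 1301 bp it was -9.87 points in quintile 2 (adjusted exact p = 0.0402). With quintiles set within X and within the autosome arms it was 3.70 points in quintile 2, 5.92 in quintile 3 and -6.41 in quintile 4. The density ratio of the second of 4 sections was 0.926 for regions seen in both replicates and 0.898 to 1.00 with a single replicate. The difference in the share seen in both between the third section and the rest of X was 0.220 points at 50% reciprocal overlap, 3.38 with centres within 200 bp and -2.27 to 2.17 with a single replicate, and for the last section it was -0.0743 and -0.0639 under those overlap rules. Median spacing was 36859 bp for regions seen in both and 28425.5 to 32926.5 bp with a single replicate. The cause of these changes was not tested. For spacing, fewer regions entered under these settings. No paired analysis was possible because no values of the input libraries were used and each ChIP library is a list of its own. Depth is unknown, so how far it limits the matches cannot be given.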
